A study of Drosophila melanogaster with 12 samples.

Results

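Of the 22350 merged accessible regions in the early Drosophila embryo libraries of this series, 702 (3.14%) carried an ATAC-seq peak in all 12 libraries, and these 702 regions are described here. They were chosen by merging every peak of the 12 libraries that shared at least 1 bp with another and keeping each merged region touched by a peak in each library. ATAC-seq inserts adapters with a transposase wherever DNA is not covered by nucleosomes, and a peak is a stretch of the genome where insertions pile up. The regions are set against 10578 regions (compared regions) that had a peak in both replicates of at least 1 group but not in all 12 libraries.

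The libraries came from pooled embryos of 6 groups with 2 replicates each, so that each p-value over libraries measures only the spread between 2 pools. HIRA maternal mutant embryos (null allele made with CRISPR/Cas9) and their wild-type controls were collected 0.5-1.5 h and 2-3 h after egg laying, and dPCIF1 maternal mutants (null allele) and their own wild-type controls at 0.5-1.5 h. The labels mark the mutants M-Z+, that is, without the maternal product and with a zygotic copy. They are read as models of maternal loss only. The paper cites a role of HIRA in forming the diploid zygote, and the ploidy of the HIRA mutant embryos was not measured here. HIRA mutants at 2-3 h included embryos whose nuclear divisions had stopped or lagged, so age in hours and nuclear stage were not the same in HIRA mutants and controls of that age. The paper describes some of these mutant embryos as likely without any nuclear division. The nuclear stage of the HIRA mutant pools at 0.5-1.5 h is unknown, and its part in the comparison at that age was not tested. The 12 libraries held 1505 to 11432 peaks, with the fewest in the 2 HIRA mutant libraries at 0.5-1.5 h (1505 and 2399). The files give peak positions without heights or read depth, so the depth behind each peak is unknown and a missing peak is not evidence of closed chromatin.

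In the first hours the embryo runs on maternal RNA and protein while its nuclei divide quickly, and its own genes are switched on in waves. Pioneer factors, which bind their sites within nucleosomes, prepare this step. Zelda binds CAGGTAG and opens enhancers and promoters of the earliest genes, and GAGA factor (GAF) binds GA repeats such as GAGAGAG at promoters. HIRA places the histone variant H3.3 on chromatin independently of DNA replication. dPCIF1 is the fly counterpart of PCIF1, an enzyme that methylates the capped end of mRNA in mammals. DREF (TATCGAT) and M1BP (GGTCACACT) bind promoters of genes used in most cells, and Caudal (TTTATGG) patterns the posterior embryo.

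The following windows of 201 bp around the midpoint of a region (dm6, plus strand, 5′ to 3′, sequence from the RefSeq Release 6 assembly) show examples of regions with the motifs counted below. The GAF share differed from that of all compared regions but not past the threshold from that of regions with a peak in 10 or 11 libraries. The first 3 carry the Zelda motif, in capitals, read as CAGGTAG or on the other strand as CTACCTG. They lie upstream of sisA, an X-linked gene whose dose sets sex, and in introns of cno and pyd, which encode cell-junction proteins. The pyd window also carries a GAF motif.
sisA, chrX:11322446-11322646: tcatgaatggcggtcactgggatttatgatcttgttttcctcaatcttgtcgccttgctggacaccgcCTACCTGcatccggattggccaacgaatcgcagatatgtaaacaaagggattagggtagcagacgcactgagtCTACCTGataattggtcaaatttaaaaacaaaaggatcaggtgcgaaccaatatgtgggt
cno, chr3R:5212125-5212325: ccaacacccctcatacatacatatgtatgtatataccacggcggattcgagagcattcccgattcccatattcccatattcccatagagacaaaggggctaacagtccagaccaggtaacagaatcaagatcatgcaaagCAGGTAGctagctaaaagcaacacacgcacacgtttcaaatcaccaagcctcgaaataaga
pyd, chr3R:8927936-8928136: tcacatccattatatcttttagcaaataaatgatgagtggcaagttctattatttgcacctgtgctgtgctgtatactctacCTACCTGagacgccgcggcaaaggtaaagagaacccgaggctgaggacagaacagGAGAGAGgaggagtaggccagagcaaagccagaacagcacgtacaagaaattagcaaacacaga

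The next 4 carry the GAF motif, in capitals, as GAGAGAG or CTCTCTC. They lie upstream of a start site of the head patterning genes oc and btd, of the Hox gene Scr and of jar, which encodes a myosin, the last 2 within an intron of the gene. The oc window holds 6 overlapping copies within 1 run of alternating bases.
oc, chrX:8650789-8650989: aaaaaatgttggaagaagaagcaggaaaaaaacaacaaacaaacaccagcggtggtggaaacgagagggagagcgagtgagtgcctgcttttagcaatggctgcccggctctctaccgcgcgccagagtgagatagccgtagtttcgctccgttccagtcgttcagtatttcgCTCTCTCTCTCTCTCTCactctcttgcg
btd, chrX:9693922-9694122: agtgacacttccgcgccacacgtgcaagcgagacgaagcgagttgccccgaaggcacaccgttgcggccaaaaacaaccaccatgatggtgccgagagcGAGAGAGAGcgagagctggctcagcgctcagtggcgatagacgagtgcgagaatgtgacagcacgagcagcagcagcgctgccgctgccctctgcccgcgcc
Scr, chr3R:6848656-6848856: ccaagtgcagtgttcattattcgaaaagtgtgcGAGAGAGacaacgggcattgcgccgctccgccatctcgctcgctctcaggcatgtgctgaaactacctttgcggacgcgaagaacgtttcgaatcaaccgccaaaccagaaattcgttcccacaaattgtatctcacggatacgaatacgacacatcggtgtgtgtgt
jar, chr3R:24259582-24259782: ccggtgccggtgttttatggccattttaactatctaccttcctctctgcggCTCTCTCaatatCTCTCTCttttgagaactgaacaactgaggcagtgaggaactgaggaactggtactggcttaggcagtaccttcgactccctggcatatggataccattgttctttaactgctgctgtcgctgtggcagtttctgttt

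Only 11 of the regions held a DREF motif in this window, and the window at lncRNA:CR46250, a non-coding RNA gene, holds 2 of them, in capitals on opposite strands.
lncRNA:CR46250, chr3L:27365896-27366096: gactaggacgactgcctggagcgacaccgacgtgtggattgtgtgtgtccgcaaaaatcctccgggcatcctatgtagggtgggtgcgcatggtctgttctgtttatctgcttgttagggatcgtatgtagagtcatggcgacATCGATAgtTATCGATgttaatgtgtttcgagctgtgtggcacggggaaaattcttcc

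The regions were spread over the genome. Chromosome arm 3R held 180, 3L 138, 2R 129, X 126 (17.9%, against 14.7% of compared regions), 2L 117, the fourth chromosome 11 and Y 1. Another member lay within 10 kb of 185 of the 701 that had a neighbour on their chromosome. In 668 of 702 (95.2%) at least 1 base was inside a peak of all 12 libraries. The midpoints of the widest peaks varied between libraries by a median SD of 51.7 bp (quartiles 31.7 and 90.9 bp), so in most of the regions the peaks of different libraries lay in the same place.

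The regions were limited by the libraries with the fewest peaks. Of the 796 regions with a peak in 11 libraries, 721 lacked a HIRA mutant library at 0.5-1.5 h, 520 of them replicate 1 and 201 replicate 2. Without HIRA mutant replicate 1 at 0.5-1.5 h the number of regions with a peak in all remaining libraries was 1222. The regions just outside the rule included wide ones at slam, which is needed for cellularization, and at the gap gene gt, at which the only library without a peak was HIRA mutant 0.5-1.5 h replicate 1. In HIRA mutant replicate 2 the widest peak was 519 bp at slam and 757 bp at gt, against 712 and 1471 bp at slam and 1121 and 1128 bp at gt in the HIRA controls at 0.5-1.5 h. The median width percentile, the place of a peak among all peaks of its library ordered by width, had a median of 84.5 for the 702 regions, 76.1 for regions with a peak in 11 libraries and 67.6 for those in 10.

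**Figure D1:**
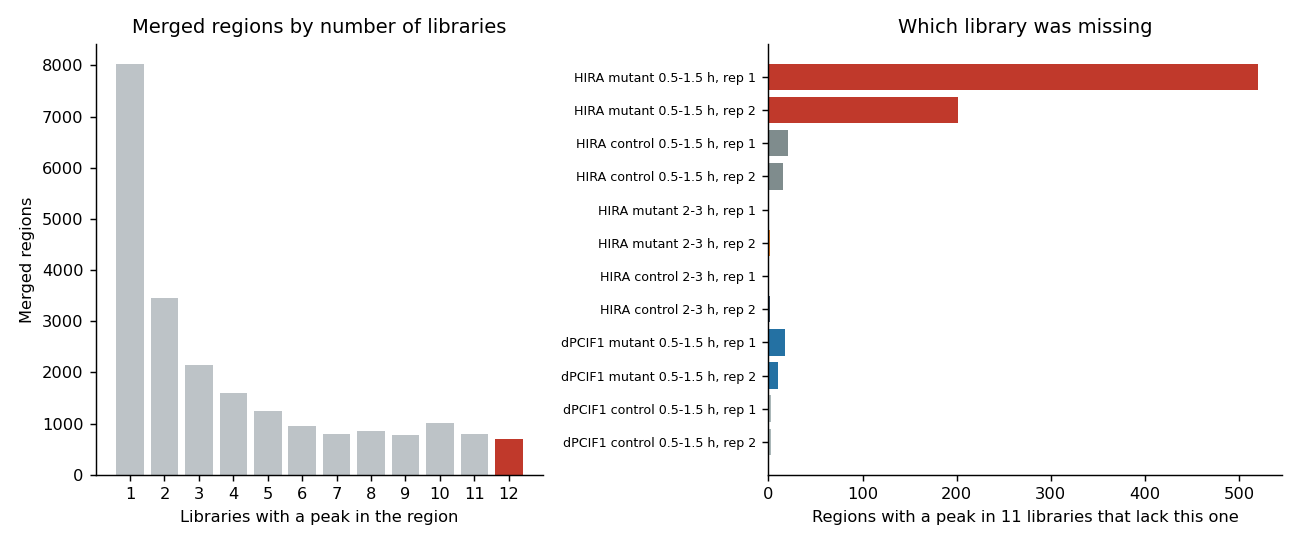
Left, number of merged regions (vertical axis) by the number of libraries with a peak in them (horizontal axis), with the 702 regions open in all 12 libraries in red. Right, for the 796 regions with a peak in 11 libraries, the number that lacked each library, led by HIRA mutant 0.5-1.5 h replicate 1 (520) and replicate 2 (201).

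The 702 regions took 727 to 776 peaks of each library, since 24 to 67 of them held more than 1 peak in a given library. They made up 48.3% and 31.1% of all peaks in the HIRA mutants at 0.5-1.5 h, against 16.2% and 14.0% in their controls. At 2-3 h the share was 7.26% and 10.9% in HIRA mutants, against 6.54% and 7.46% in controls. In dPCIF1 mutants it was 7.85% and 6.75%, against 10.3% and 9.92% in their controls. The share followed the number of peaks in the library, which is part of how the regions were defined.

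Within the series, the regions differed from compared regions in their motif shares. Most held none of the GAF, Zelda, DREF and M1BP motifs in the window, 463 (65.95%), against 8541 compared regions (80.74%). A Zelda motif lay within 100 bp of the midpoint of 119 of 702 regions (16.9%, 95% Wilson interval 14.4 to 19.9%), against 534 of 10578 compared regions (5.05%, 4.65 to 5.48%; log2 odds ratio of 1.94 by Fisher's exact test, two-sided, p adjusted by Benjamini-Hochberg over 5 motifs = 2.94e-27). A GAF motif lay in 128 (18.2%, 15.5 to 21.3%), against 1021 compared regions (9.65%, 9.10 to 10.2%; log2 odds ratio 1.06, exact test, adjusted p = 6.94e-11). Each p describes the sets of regions called in these 12 libraries, since regions are not replicates of a condition. In windows moved 1 kb away, the motifs were found in 2.07% (Zelda) and 4.27% (GAF) of the regions and in 1.28% and 2.69% of compared regions.

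Both motifs occurred together in 19 regions (2.71%) and 25 compared regions (0.236%), and either was present in 228 (32.5%) and 1530 (14.5%). A count over the whole merged region gave the same picture per length, with 0.535 Zelda motifs per kb against 0.198 in compared regions, and 1.28 GAF motifs per kb against 0.888. At least 2 Zelda motifs were found in 73 of the regions (10.4%) and in 130 compared regions (1.23%). Outside arm 2R the most were 5, in the sisA region, then 4 at btsz, which encodes a synaptotagmin-like protein. The most GAF motifs, 17 in 822 bp, counting overlapping copies, lay in an intronic region whose nearest start site, 14555 bp away, is that of the zinc-finger gene Sp1. These regions with the most motifs were chosen after their values were seen.

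The motifs of the factors that bind widely used promoters were rarer. A DREF motif was present in 11 regions (1.57%) and 438 compared regions (4.14%; log2 odds ratio -1.44, exact test, adjusted p = 4.82e-04). The DREF call was lost with the motif counted anywhere in the region (-0.30, exact test, adjusted p = 0.0997) or within 50 bp of the midpoint (-0.88, adjusted p = 0.119), and without HIRA mutant 0.5-1.5 h replicate 1 the value was -0.69 (adjusted p = 0.0104). An M1BP motif was present in 2 regions (0.285%), against 130 compared regions (1.23%; log2 odds ratio -2.12, exact test, adjusted p = 0.0174), which rests on those 2 regions. The M1BP call was lost without HIRA mutant 0.5-1.5 h replicate 2 (-0.89, exact test, adjusted p = 0.149). The Caudal motif was found in 44 regions (6.27%) and 390 compared regions (3.69%; log2 odds ratio 0.80, exact test, adjusted p = 0.00191). It was as frequent in windows 1 kb away (6.70% of the regions and 5.18% of compared regions), and its call was lost without HIRA mutant 0.5-1.5 h replicate 1 (0.36, exact test, adjusted p = 0.0953) or replicate 2 (0.45, adjusted p = 0.0705).

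Against the nearest neighbours in number of libraries, those with a peak in 10 or 11, the Zelda difference was smaller but still past the threshold (1.08 on the log2 scale, exact test, adjusted p = 8.07e-08), and the GAF difference was not (0.18, adjusted p = 0.287). The GAF share grew with the number of libraries over the whole range, to 15.2% in regions with 10, 18.1% with 11 and 18.2% with all 12. With only the 1505 widest peaks of each library, which left 142 regions, Zelda alone of the 5 motifs passed the threshold (1.60, exact test, adjusted p = 4.56e-05). The Zelda share was between 2.62% and 5.93% in regions with 1 to 9 libraries, and then 7.68% with 10, 10.2% with 11 and 16.9% with all 12.

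**Figure D2:**
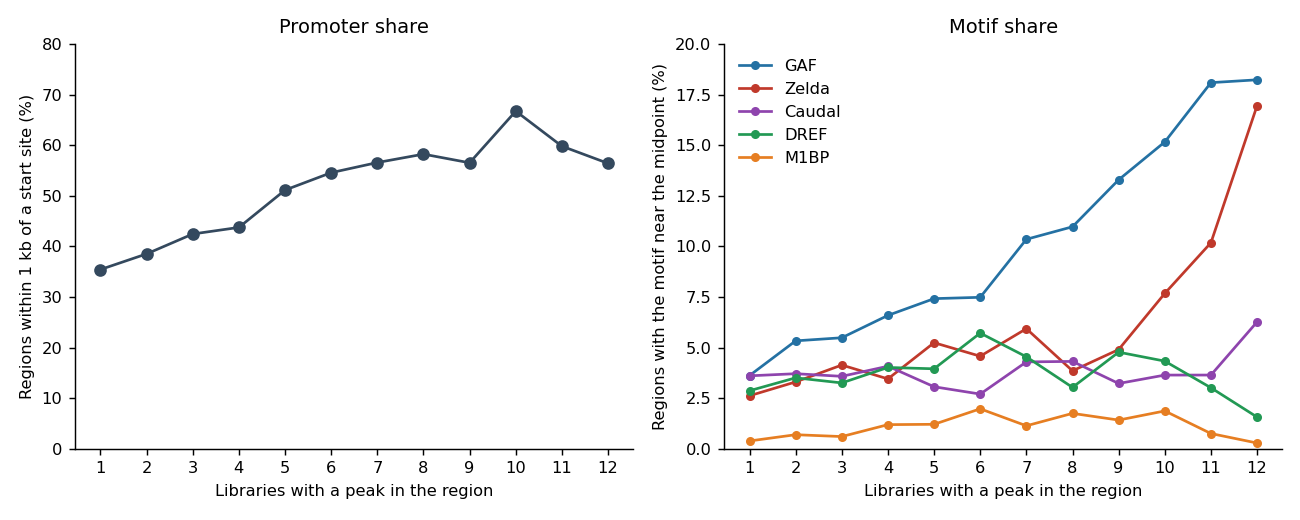
Share of merged regions by the number of libraries with a peak in them. Left, percent within 1 kb of a transcription start site, highest in regions with 10 libraries (66.7%). Right, percent with each motif in the 201-bp window, with the Zelda share at 16.9% and the DREF share at 1.57% in regions with all 12 libraries.

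All 8192 pairs of a 7-letter sequence and its reverse complement were then tested in the same windows without choosing motifs. More frequent in the regions were 61 (0.745% of those tested) and less frequent 4 (0.0488%; Fisher's exact test, Benjamini-Hochberg adjusted p under 0.05). CAGGTAG ranked first of all 8192. GCAGGTA at rank 2 and AGGTAGA at rank 3 overlap it, CAGGTAA at rank 4 differs from it in the last letter, and GAGAGAG was at rank 5. GCGAGAG at rank 7, AGCGAGA at rank 8 and GAGCGAG at rank 9 resemble the GAF motif. Among the 4 rarer ones, the DREF motif TATCGAT was found, in 11 regions, and GATTGCA had the lowest p. The number more frequent was 43 to 91 when any 1 library was left out. The number less frequent was 14 without HIRA mutant 0.5-1.5 h replicate 1, and 2 without HIRA control 0.5-1.5 h replicate 2, HIRA control 2-3 h replicate 1 or HIRA control 2-3 h replicate 2.

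Whether the regions lay at promoters more or less often depended on what they were compared with. Within 1 kb of an annotated transcription start site lay 396 (56.4%, 52.7 to 60.0%) of the regions, against 51.9% (51.0 to 52.9%) of compared regions (log2 odds ratio of 0.26 by Fisher's exact test, two-sided, p = 0.0214). Among regions of like width (5 classes, Cochran-Mantel-Haenszel test) the value was -0.21 (p = 0.0746), and against regions with 10 or 11 libraries it was -0.44 (exact test, p = 8.43e-04). The exact test also missed the threshold when any 1 of these was left out: HIRA control 2-3 h replicate 1 (0.19, p = 0.0991) or 2 (0.18, p = 0.117), HIRA mutant 2-3 h replicate 1 (0.18, p = 0.109) or 2 (0.17, p = 0.138), or dPCIF1 control replicate 1 (0.19, p = 0.0861) or 2 (0.20, p = 0.0859). A start site lay within 200 bp of 46.2% of the regions and 37.0% of compared regions.

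Of the 396 promoter regions 239 were centred upstream of the nearest start site. Start sites on both strands lay within 1 kb in 75 regions (10.7%, 8.61 to 13.2%), against 18.1% (17.4 to 18.9%) of compared regions. The midpoint was in an intron in 312 (44.4%, against 35.6%), between genes in 206 (29.3%, against 24.1%), in a coding exon in 79 (11.3%, against 22.9%) and in a 5′ UTR in 63 (8.97%, against 12.7%). The GC content of the window had a median of 50.2% in the regions and 48.8% in compared regions. Promoter regions carried a GAF motif in 86 cases (21.7%), against 42 (13.7%) of the other regions, while Zelda was in 64 (16.2%) and 55 (18.0%). Compared regions were split in the same direction, with GAF in 11.7% at promoters and 7.49% elsewhere and Zelda in 4.21% and 5.96%.

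The lists of gap, terminal and early zygotic genes had the largest shares of genes with such a region. Of all 18277 annotated genes, 533 (2.92%) had such a region within 1 kb of a start site. In the lists, 20 of 41 early zygotic genes had one (48.8%), as did 10 of 13 gap and terminal genes (76.9%), 4 of 11 pair-rule genes, 5 of 12 segment polarity genes, 1 of 8 Hox genes and 2 of 11 genes of the E(spl) complex, which are Notch targets. Every other gene of the early zygotic, gap, pair-rule, Hox and segment polarity lists had a peak at a start site in fewer libraries. The lists were drawn up with results of these data known, so the counts are descriptions beside the share over all genes.

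The members of these lists included D, a Sox-family transcription factor, zen, a homeobox gene of the dorsal side, scw, a BMP ligand, and the early X-linked gene CG14427. Among gap and terminal genes were hb, oc, knrl and btd, among pair-rule genes ftz, run, odd and sob, and among segment polarity genes nkd, an inhibitor of Wnt signalling, hh, ci and wg. The Hox gene was Scr, and the 2 E(spl) genes were E(spl)m4-BFM and E(spl)m7-HLH.

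The other lists are read against the same share of 2.92% over all genes. Of 93 cytosolic ribosomal protein genes 1 (RpL13A, whose region also covers 2 snoRNA genes) had a region, of 73 mitochondrial ones 1 (mRpL11), and of 31 genes of the nuclear division cycles 2, the cyclin gene CycE and trbl, a brake on mitosis (1.08%, 1.37% and 6.45%, with Wilson intervals that all include 2.92%). None of 14 heat shock genes, 14 genes of H3.3 and histone chaperones or 111 replication-dependent histone genes had one. Their Wilson intervals, up to 21.5%, 21.5% and 3.3%, also include 2.92%. The replication-dependent histone genes had no peak in any library. Reads without a unique place in the genome had been removed before peak calling. What this did at the histone genes was not tested, so their count is no result about their chromatin. Of 186 chemoreceptor genes 3 had one, and the other start sites near those regions belong to other genes. Of the small RNA genes, 4 of 295 tRNA (1.36%) and 9 of 260 microRNA genes (3.46%) had one. So did 9 of 257 snoRNA (3.50%) and 3 of 32 snRNA genes (9.38%). Neighbouring genes shared regions, with the tRNA genes at 3 regions, the microRNA genes at 7 and the snoRNA genes at 5. The 3 snRNA genes are the neighbouring U6 copies of snRNA:U6:96A, at 1 region. Protein-coding genes with a region were longer (median 7841 bp, n = 396) than those with another peak (2559 bp, n = 8018) or none (1680 bp, n = 5554).

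**Figure D3:**
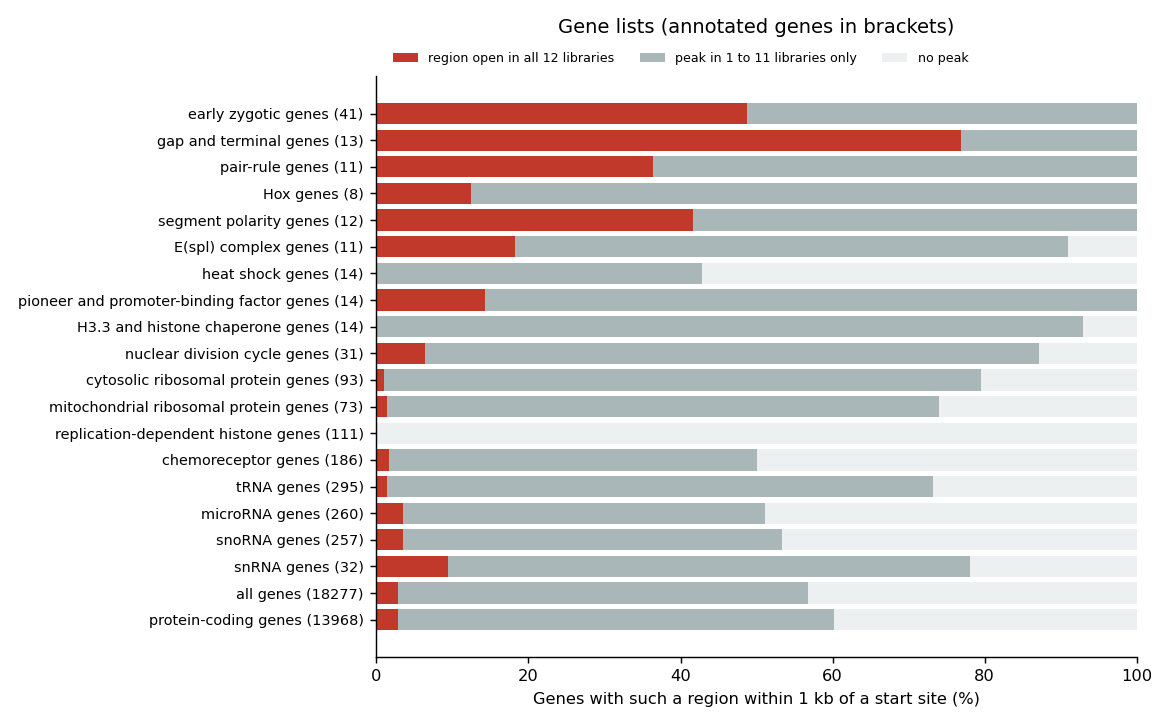
Percent of the annotated genes of each list (horizontal axis) with a region open in all 12 libraries within 1 kb of a start site (red), with a peak in 1 to 11 libraries only (grey) or with no peak (light). The red share is 76.9% for gap and terminal genes and 2.92% for all genes.

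By width, the rule favours wide peaks, so the widths of the regions beside those of compared regions are given as a description. Merged, the regions had a median width of 844 bp (quartiles 674 and 1126 bp), against 537 bp (411 and 734 bp) in compared regions. In single libraries 66.2 to 97.4% of the regions were in the wider part of that library's peaks, above its median width. Leaving out arm 2R, the 20 with the highest median width percentile included the regions at D, zen, scw, CG14427, sisA, CycE and the non-coding RNA gene lncRNA:Hsromega. They also included disco, a zinc-finger gene, and phtm, which encodes an enzyme of ecdysone synthesis. The 10 narrowest outside 2R had percentiles from 26.0 to 42.3 and lay at Antp, bnb and rdx, among others.

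The median width of the regions differed between stages and in early HIRA mutants. At 0.5-1.5 h it was 345.5 and 381.5 bp in HIRA mutants, against 519.5 and 551 bp in controls (log2 ratio -0.56). At 2-3 h it was 636 and 594.5 bp in HIRA mutants, against 697 and 665 bp in controls (-0.15). In dPCIF1 mutants it was 620.5 and 635.5 bp, against 593 and 608.5 bp in their controls (0.06). The groups did not overlap in any of these pairs, with both HIRA mutant libraries narrower at each stage and both dPCIF1 mutant libraries wider than their controls.

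Between stages the HIRA controls had 697 and 665 bp at 2-3 h, against 519.5 and 551 bp at 0.5-1.5 h (log2 ratio 0.35). The exact permutation test over libraries (two-sided) gave p = 0.33 in all 4 comparisons, the smallest p that 2 libraries against 2 can give, so none could pass the threshold. Compared regions with a peak in the same 4 libraries gave log2 ratios of -0.25 (n = 66), -0.20 (n = 3578), 0.31 (n = 3370) and 0.53 (n = 2365) in the order HIRA at 0.5-1.5 h, HIRA at 2-3 h, dPCIF1 and stage. The mean number of peaks moved in the direction of the widths in each pair, and its part in them was not tested. The part of nuclear stage in the HIRA mutant widths was not tested at either age.

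**Figure D4:**
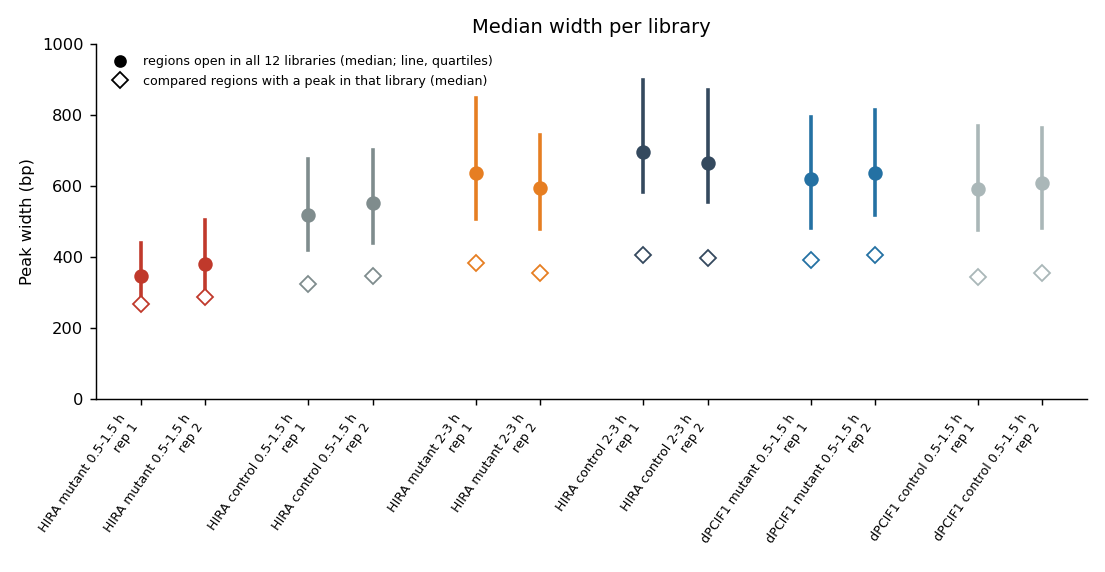
Peak width in bp (vertical axis) in each of the 12 libraries. Filled circles and lines give the median and quartiles of the widest peak in the 702 regions, and open diamonds the median of compared regions with a peak in that library. The 2 HIRA mutant libraries at 0.5-1.5 h are lowest, at 345.5 and 381.5 bp.

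Region by region, the counts of those whose 2 groups did not overlap in width are set beside the same share of compared regions with a peak in all 4 libraries. In HIRA mutants at 0.5-1.5 h, 500 regions (71.2%, background 36.4%, from 66 regions) were narrower in both mutants than in both controls, and 14 (1.99%, background 10.6%) wider. At 2-3 h 325 (46.3%, background 40.2%) were narrower in HIRA mutants and 60 (8.55%, background 12.2%) wider. In dPCIF1 mutants 267 (38.0%, background 50.9%) were wider and 152 (21.7%, background 8.72%) narrower. Between control stages 528 (75.2%, background 71.3%) were wider at 2-3 h and 14 (1.99%, background 0.846%) narrower. Compared regions were required to have peaks in only these 4 libraries, so they differ from the regions in more than width.

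Among the 5 regions outside arm 2R with the largest narrowing in early HIRA mutants were those at pyd, lncRNA:Hsromega, cno and emc. At pyd the widest peak was 214 and 222 bp in HIRA mutants, against 1069 and 1389 bp in controls at 0.5-1.5 h, and 936 and 1044 bp in HIRA mutants at 2-3 h, against 1052 and 1112 bp in controls. At lncRNA:Hsromega, a heat-inducible non-coding RNA, it was 301 and 203 bp in early HIRA mutants and 801 and 1982 bp in controls. At cno it was 332 and 384 bp in early HIRA mutants, against 1163 and 1383 bp in controls. In these and at emc, an inhibitor of helix-loop-helix factors (222 and 291 bp in HIRA mutants, 877 and 805 bp in controls), every early HIRA mutant library was below every control. Peaks were at least 200 bp wide, and several of these HIRA mutant values lay close to that floor.

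At 2-3 h, 1 of the 5 regions outside arm 2R with the largest widening in HIRA mutants lay at TfIIS, an elongation factor of RNA polymerase II. Its width was 1354 and 1469 bp in HIRA mutants, against 696 and 370 bp in controls. Narrower at that stage was the region at the Hox gene Scr, with 468 and 427 bp in HIRA mutants, against 1003 and 1009 bp in controls. At Nrt, which encodes an adhesion protein, it was 1688 and 1059 bp in HIRA mutants, against 3242 and 3128 bp in controls.

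In dPCIF1 mutants the regions at D, zen and sisA were narrower than in their own controls. Of the 20 regions at early zygotic genes, 10 (50.0%) were narrower in both dPCIF1 mutants than in both controls and 3 wider, beside 21.7% narrower and 38.0% wider of all 702, a description with no test of the difference. At D the width was 1028 and 1521 bp in dPCIF1 mutants, against 1981 and 1855 bp in controls. At zen it was 551 and 1166 bp in dPCIF1 mutants, against 1258 and 1409 bp in controls. At sisA it was 971 and 566 bp in dPCIF1 mutants, against 1534 and 1524 bp in controls. All 3 showed no overlap between dPCIF1 mutants and their controls. In the HIRA controls of the same age the width at D was 1177 and 864 bp. It was 993 and 1242 bp at zen and 693 and 1226 bp at sisA. These HIRA control values overlapped those of the dPCIF1 mutants at all 3.

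Of the 10 regions at gap and terminal genes, 5 (50.0%) were wider in dPCIF1 mutants and 1 (10.0%), at hb, narrower. Their median log2 width ratio was 0.10. Over all 702 regions 38.0% were wider and 21.7% narrower, and over compared regions 50.9% and 8.72%. The difference was not tested. At hb the width was 326 and 562 bp in dPCIF1 mutants, against 947 and 1172 bp in controls. At Sry-alpha, which acts in cellularization and is on none of the lists, it was 207 and 442 bp in dPCIF1 mutants, against 1177 and 1605 bp in controls. The value of 207 bp lies close to the smallest peak width of 200 bp.

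The hb region was 313 and 341 bp wide in HIRA controls of the same age, and 1264 and 1173 bp in HIRA controls at 2-3 h. The 2 sets of wild-type controls at 0.5-1.5 h therefore differed at hb by more than the spread within each, and the values of each mutant are read against its own controls only. Wider in dPCIF1 mutants were the regions at Lk6, a protein kinase (1032 and 1176 bp, against 437 and 458 bp in controls), and jar (1356 and 1313 bp, against 538 and 571 bp in controls). On the fourth chromosome the region at bt, which encodes a muscle protein, had 706 and 944 bp in dPCIF1 mutants, against 272 and 341 bp in controls.

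By motif, the regions narrower in both early HIRA mutants than in both controls were 100 of 128 regions with a GAF motif, 86 of 119 with Zelda and 329 of 474 with neither (78.1, 72.3 and 69.4%). The share was 71.2% over all 702 and 36.4% over the 66 compared regions with a peak in all 4 libraries. In dPCIF1 mutants 55 of 128 regions with a GAF motif were wider (43.0%) and 14 narrower (10.9%). Of 119 with a Zelda motif 32 were wider (26.9%) and 35 narrower (29.4%), and of 474 with neither 187 were wider (39.5%) and 105 narrower (22.2%). Over all 702, 38.0% were wider and 21.7% narrower, and over compared regions 50.9% and 8.72%. The median log2 width ratio in dPCIF1 mutants against controls was 0.10 with GAF, -0.01 with Zelda and 0.07 with neither motif. No test of the difference between motif classes was run on the widths.

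**Figure D5:**
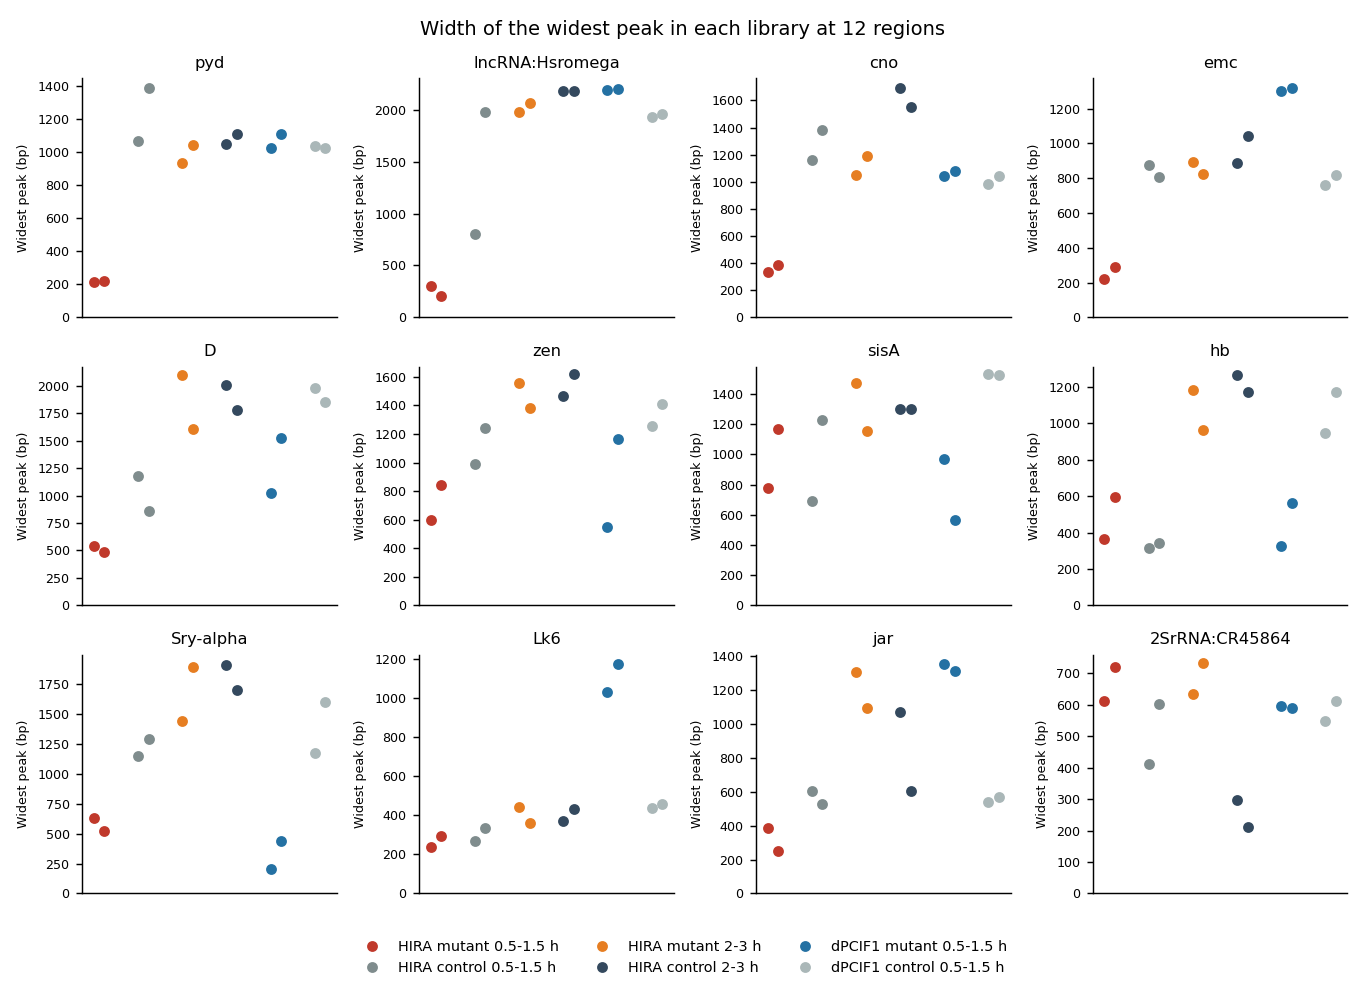
Width in bp of the widest peak (vertical axis, from 0) in each library at 12 named regions, with 1 point per library and groups in colour, mutants left of their controls. Within the pyd region early HIRA mutants are the lowest group (214 and 222 bp), and within the Sry-alpha region dPCIF1 mutants are (207 and 442 bp).

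A set of regions near the centromere of X varied little between libraries. Beyond 22 Mb of X lay 22 of the regions, in a stretch with pseudogenes of ribosomal RNA, and the library with the widest peak exceeded that with the narrowest by a median of 1.44 times (range 1.12 to 3.76), against 2.64 over all 702. In HIRA mutants at 0.5-1.5 h 9 of the 22 were narrower (40.9%, beside 71.2% of all 702). In dPCIF1 mutants 16 of the 22 were narrower than in both controls (72.7%, beside 21.7% of all 702), and in HIRA mutants at 2-3 h 12 were wider (54.5%, beside 8.55%). In HIRA controls at 2-3 h 12 were narrower than at 0.5-1.5 h (54.5%, beside 1.99%) and 6 wider (27.3%, beside 75.2%). Over the 22, the median log2 width ratio was -0.06 in HIRA mutants at 0.5-1.5 h and 0.10 at 2-3 h. It was -0.10 in dPCIF1 mutants and -0.07 between control stages, so the typical change was small. The region nearest to 2SrRNA:CR45864 lay 35896 bp from its start site. It was 1 of the 5 outside arm 2R with the largest widening in HIRA mutants at 2-3 h. Its width was 634 and 734 bp in HIRA mutants at that stage, against 297 and 211 bp in controls (log2 ratio 1.45). At 0.5-1.5 h it was 613 and 721 bp in HIRA mutants, against 413 and 604 bp in controls. At least 50% of the bases of 5 of these 22 were soft-masked repeats, against 6 of 702 regions in all and 55 of 10578 compared regions. The part of repeated sequence in these widths was not tested. This set was chosen after its values were seen.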

How the data were processed

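Embryos (200 per replicate at 0.5-1.5 h, 30 at 2-3 h) were pooled for each of the 12 libraries. Per the labels and the study's methods, the authors trimmed reads with Trimmomatic 0.39, mapped them to dm6 with Bowtie2 2.2.5, marked duplicates with sambamba, removed non-unique and low-quality reads with SAMtools 1.18 and called peaks per library with MACS2 2.2.7.1. The handling of the transposase offset is not given in the sources used here. The deposited peak files hold chromosome, start and end of each peak, with no height, p-value or depth.

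Peaks were merged at 1 bp overlap. The widest peak of a library within a region gave its width. Genes and start sites came from Ensembl release 115 and sequence from the RefSeq Release 6 assembly; no peak or gene ended beyond its chromosome. Motifs were searched on both strands as exact letters. Shares have 95% Wilson intervals, which cover counting error over regions only. Fisher's exact tests were run over regions, with exact permutation tests over libraries, using python 3.11.15, numpy 2.4.6, pandas 2.3.3 and scipy 1.17.1. The 7-mer scan was tested on simulated data. Named regions were the 20 widest and 10 narrowest by median percentile, up to 4 genes per list, the 5 widest with 11 libraries and the 5 most changed per direction and comparison, leaving out arm 2R. Repeat-rich regions, those beyond 22 Mb of X, and the comparison with 10 or 11 libraries were added after seeing the data. The regions and gene lists were chosen with earlier results of these data known.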

Additional observations from a re-analysis of the deposited data

Results flagged for a closer look

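At 31 of the 702 regions the widest peak was narrower in both HIRA mutants than in both controls at 0.5-1.5 h and wider in both at 2-3 h, and at 1 region the directions were the other way round. These were picked out because all mutant libraries moved one way at one stage and the opposite way at the other. Over all 702 regions, 71.2% were narrower in HIRA mutants at 0.5-1.5 h and 8.55% wider at 2-3 h, so a joint count of this size is no result about these regions. The difference between stages was not tested.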

How the results depend on the processing

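Alternatives were run for the number of regions, the promoter and motif shares, the 7-letter scan, the median widths and the counts without overlap, and not for the gene lists, the other annotation shares or the motif densities. The Zelda share was past the threshold in every alternative run. Taking only the 1505 widest peaks of each library left 142 regions, and the log2 odds ratios were then 0.39 for promoters (exact p = 0.153), 0.72 for GAF (adjusted p = 0.108), -0.29 for DREF, -0.67 for M1BP and -0.40 for Caudal, which changed direction. Requiring a shared base gave 0.19 for promoters (exact p = 0.110), and placing the centre within 1 kb 0.22 (p = 0.0559). The promoter value changed direction within 5 width classes (-0.21) and against regions with 10 or 11 libraries (-0.44), against which GAF was 0.18. With windows of 50 bp either side DREF was -0.88, M1BP -2.07 and Caudal 0.72, none past the threshold, and 21 and 1 of the 7-letter sequences were more and less frequent. With the motif anywhere in the region DREF was -0.30, and against all other regions M1BP was -1.56.

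Leaving out 1 library at a time gave 702 to 1222 regions, 43 to 91 sequences more and 2 to 14 less frequent, and log2 odds ratios of 0.17 to 0.44 for promoters, 0.91 to 1.23 for GAF, 1.49 to 2.04 for Zelda, -1.51 to -0.69 for DREF, -2.29 to -0.89 for M1BP and 0.36 to 0.84 for Caudal. A gap of at least 50 bp between groups left 5 wider regions in early HIRA mutants, 33 wider and 179 narrower at 2-3 h, 143 wider and 92 narrower in dPCIF1 mutants, and 349 wider and 4 narrower in controls at 2-3 h. With the replicate number as a replicate block, the width ratios came to -0.56 and -0.15 in HIRA mutants at 0.5-1.5 h and 2-3 h, 0.06 in dPCIF1 mutants and 0.35 between control stages. Tests over regions describe these peak sets, and peak numbers limit which regions can have a peak in all 12.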
